A study of Mus musculus with 2 samples.

Results

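A set of 7 glucocorticoid-responsive genes was followed through the cell classes of mouse tumours: Cebpd, Sgk1, Tsc22d3, Fkbp5, Per1, Klf9 and Nr3c1. They were found by gene symbol, 7 of the 32285 features in the matrices, each at 1 row. The genes were chosen by known response to the hormone and selected on the tumour-cell ratios of these same libraries, in which Cebpd, Sgk1 and Tsc22d3 stood high, so their levels are a description and no statement rests on the direction in which they were chosen. The study took subcutaneous tumours from mice fed a diet without serine and glycine (the library titled SG, called serine/glycine-free here) and from mice fed a control diet (the library titled CT). Each diet is 1 single-cell RNA library made with 10x Genomics 3' chemistry, and the labels name neither the tumour line, the mouse strain, sex or age, nor the number of animals pooled. Since nothing was replicated, no test was possible, a difference between diets is a difference between 2 libraries, and the 95% intervals below cover counting error only.

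Glucocorticoids are steroid hormones of the adrenal cortex that enter cells and bind the glucocorticoid receptor, the product of Nr3c1. The bound receptor leaves its chaperone complex, enters the nucleus and binds glucocorticoid response elements in DNA, pairs of inverted hexamers spaced by a short gap, or acts through other DNA-bound factors. The other genes are among its well-known targets in many tissues. Fkbp5 encodes a co-chaperone that holds the receptor in a state of low affinity for hormone, and so closes a feedback loop, and Tsc22d3 encodes GILZ, an anti-inflammatory leucine-zipper protein. Sgk1 encodes a kinase that regulates ion channels and cell survival, and Per1 a repressor of the circadian clock. Klf9 encodes a zinc-finger transcription factor, and Cebpd a bZIP transcription factor of acute-phase and adipogenic programmes. Several of these genes also respond to cytokines, cyclic AMP, osmotic stress or serum, so no single member marks glucocorticoid exposure by itself.

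Of the 7 genes, 5 (Sgk1, Per1, Fkbp5, Klf9 and Tsc22d3) had entries in the RefSeq promoter table (GRCm38.p6), with 13 start sites in all. The 250 bases before each start were searched on both strands for a full glucocorticoid response element (AGAACA and TGTTCT with 3 free bases between them), for a relaxed form that overlaps it (GNACA and TGTNC with the same gap), for the cyclic AMP element TGACGTCA and its short form TGACG, which overlap, and for the E-box CACGTG. Among the member windows, 1 held the full element, and it belonged to Sgk1. The element stood at chr10:21993701-21993715 on the plus strand, with 189 bases from its first base to the start site. Among all 32851 windows of the same length, 3 (0.00913%) held the full form and 127 (0.387%) the relaxed form. The short form TGACG was in 5 member windows, of Klf9, Per1, Sgk1 and Tsc22d3, and in 17.8% of all windows. The full TGACGTCA was in 0 member windows and in 1.55% of all windows. The E-box was in 3 member windows, of Fkbp5, Per1 and Sgk1, and in 6.02% of all windows. The window of Sgk1 that held the element is shown with a window each of Per1, Klf9 and Fkbp5 that held none, so that the match and the other motifs can be seen in place. Capitals mark the motif matches. The windows are chr10:21993640-21993889 (plus strand) for Sgk1, chr11:69099902-69100151 (plus) for Per1, chr19:23140976-23141225 (plus) for Klf9 and chr17:28486150-28486399 (minus) for Fkbp5. A match of letters is a description of the window and says nothing of binding in these cells, and receptor binding sites can lie far from start sites.
Sgk1: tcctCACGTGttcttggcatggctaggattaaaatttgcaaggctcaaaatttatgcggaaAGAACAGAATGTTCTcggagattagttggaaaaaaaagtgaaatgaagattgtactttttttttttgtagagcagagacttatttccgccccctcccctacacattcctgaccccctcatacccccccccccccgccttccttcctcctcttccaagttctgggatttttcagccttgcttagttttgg
Per1: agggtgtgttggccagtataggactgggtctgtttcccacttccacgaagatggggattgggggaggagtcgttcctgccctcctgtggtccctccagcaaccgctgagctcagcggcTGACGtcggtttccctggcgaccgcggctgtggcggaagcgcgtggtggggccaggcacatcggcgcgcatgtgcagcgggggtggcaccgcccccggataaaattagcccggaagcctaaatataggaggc
Klf9: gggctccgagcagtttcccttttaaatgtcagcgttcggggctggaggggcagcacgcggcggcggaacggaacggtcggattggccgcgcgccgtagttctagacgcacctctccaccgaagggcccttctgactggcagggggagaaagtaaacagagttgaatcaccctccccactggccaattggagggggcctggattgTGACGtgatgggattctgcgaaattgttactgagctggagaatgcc
Fkbp5: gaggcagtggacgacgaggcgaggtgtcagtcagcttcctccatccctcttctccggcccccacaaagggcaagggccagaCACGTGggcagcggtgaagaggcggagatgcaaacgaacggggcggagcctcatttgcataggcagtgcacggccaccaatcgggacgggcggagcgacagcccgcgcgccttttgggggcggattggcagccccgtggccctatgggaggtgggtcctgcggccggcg

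Cells were assigned to classes from raw counts of marker genes, without using the 7 genes. The serine/glycine-free library gave 19106 cells with a median of 7305 UMIs (unique molecular identifiers, 1 per captured RNA molecule), against 13588 cells and a median of 11310.5 in the control library, after filters on quality and doublets. The libraries shared 87 cell barcodes, 0.421% of the serine/glycine-free and 0.589% of the control barcodes. The tumour gate (Hmga2, Rhox5, Krt20) held 12241 serine/glycine-free and 10186 control cells, the stromal gate (fibroblasts, endothelial and mural cells) 164 and 120, the macrophage gate 1796 and 1408, and the T-cell gate 1202 and 430. Several genes that were checked but not used for gating also separated the gates. Xist, expressed from the inactive X of female cells, was at 1.44 and 0.984 CPM (a gene's UMIs scaled to the total UMIs of the gate) in tumour cells of the serine/glycine-free and control libraries, against 287 and 335 CPM in stroma. Lyz2, a lysozyme of myeloid cells, was at 16629 and 14702 CPM in macrophages, and Col3a1, a fibrillar collagen, at 8674 and 6709 CPM in stroma. The pan-leukocyte gene Ptprc was at 3.28 CPM in serine/glycine-free and 1.07 CPM in control tumour cells. Epcam, also checked, did not mark the tumour gate. It was at 0.0151 and 0.0138 CPM there, at 2.82 and 7.70 CPM in T cells, and at 26.5 CPM in serine/glycine-free B cells. Lyz2 was also found in stroma, at 49.6 CPM in the serine/glycine-free and 233 CPM in the control library. Transcripts of the tumour panel were found in the other gates at 7.38% and 9.15% of their tumour level in stroma, 5.25% and 3.02% in macrophages and 2.57% and 2.01% in T cells. In the serine/glycine-free library 16.9% of cells entered no gate, against 8.96% in the control library.

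In tumour cells all 7 genes were higher in the serine/glycine-free library, and the counting interval of each ratio lay above 0. This is the contrast known when the genes were chosen. Of the 14711 features with at least 50 UMIs in tumour cells, 55.9% were higher in the serine/glycine-free library and 7.57% were higher by a log2 ratio of at least 0.5, a size that 4 of the 7 genes reached. The median of the 7 log2 ratios was 0.54, beside 0.03 over all features.

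Cebpd had the highest ratio of the 7, at 119 CPM in serine/glycine-free and 42.8 CPM in control tumour cells (log2 ratio 1.48, 95% interval 1.44 to 1.52). The gene lies at chr16:15887286-15891031 (mm10, plus strand). Sgk1, at chr10:21882184-21999903 (plus strand), was at 99.1 and 41.3 CPM (1.26, 1.22 to 1.31) in the serine/glycine-free and control library. Tsc22d3, at chrX:140539528-140600659 (minus strand), was at 119.9 and 63.7 CPM (0.91, 0.88 to 0.95). Per UMI, these 3 transcripts were 1.88 to 2.79 times as abundant in the serine/glycine-free tumour cells as in the control ones.

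The other members differed less. Per1, at chr11:69095217-69109960 (plus strand), was at 19.7 CPM in serine/glycine-free and 13.5 CPM in control tumour cells (log2 ratio 0.54, 0.46 to 0.63). Fkbp5, at chr17:28399094-28517527 (minus strand), was at 229.6 and 165 CPM (0.48, 0.45 to 0.50). Klf9, at chr19:23141226-23168134 (plus strand), was at 94.7 and 82.2 CPM and had the smallest ratio (0.20, 0.17 to 0.24). The receptor gene Nr3c1 was at 184 and 154 CPM (0.26, 0.23 to 0.29). The ratio of Fkbp5, among the best-known targets of the receptor, was thus nearer to that of the receptor gene than to those of Cebpd and Sgk1.

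**Figure D1:**
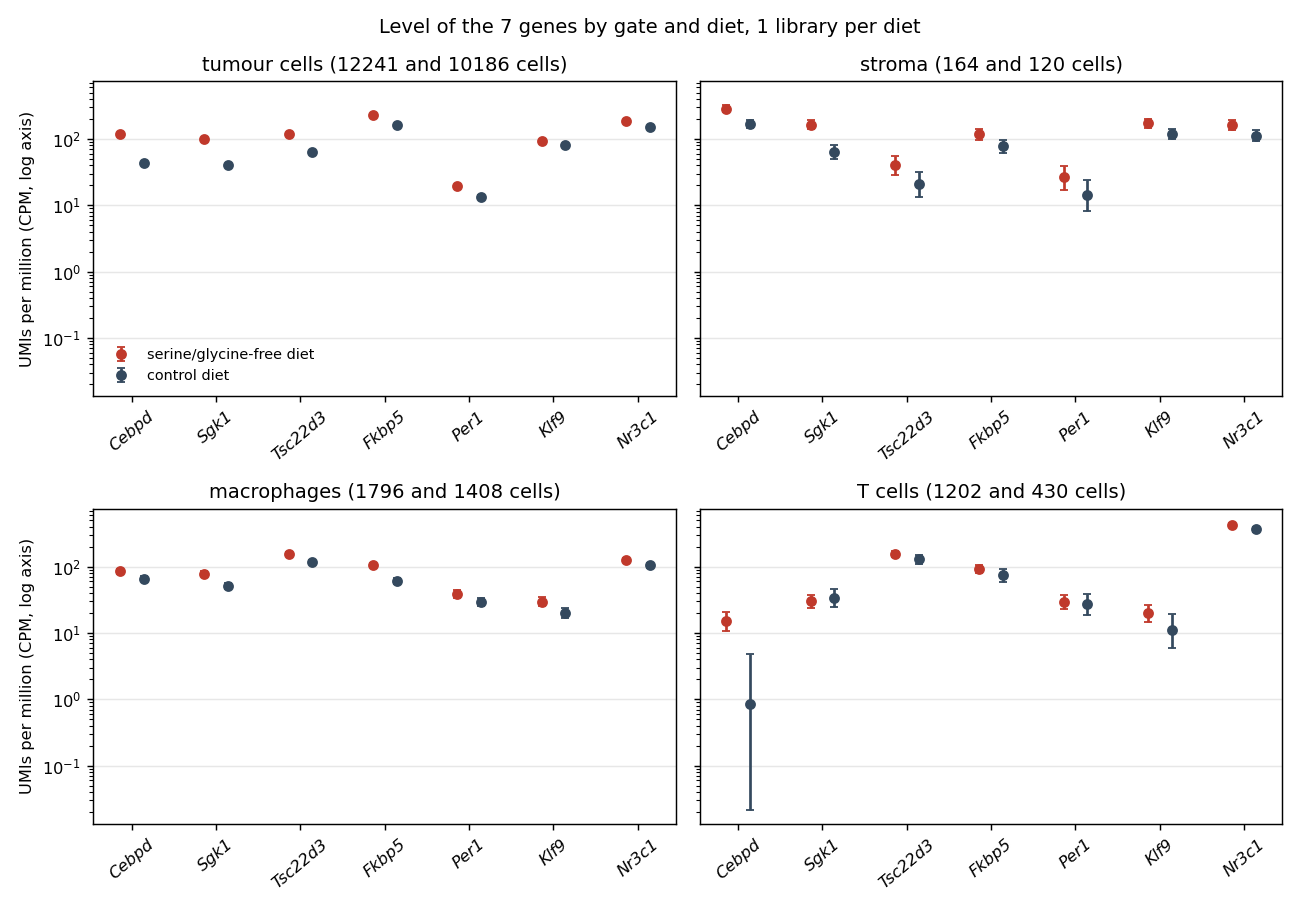
Level of each of the 7 genes (CPM, log axis) in tumour cells, stroma, macrophages and T cells, with exact Poisson 95% intervals, the serine/glycine-free library left of the control library. In tumour cells, stroma and macrophages every gene was higher in the serine/glycine-free library, and in T cells Sgk1 was at 30.3 CPM against 34.2 CPM.

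For shares of tumour cells with a transcript, 11306 serine/glycine-free and 10015 control tumour cells were thinned at random to 5000 UMIs each, which left out 935 and 171 shallower cells. A Cebpd UMI was then found in 31.1% of serine/glycine-free and 15.9% of control cells, with a mean of 2.03 and 1.61 UMIs in the cells that had any. In cells with any Per1, its mean was 1.07 in each library. Sgk1 was found in 35.5% and 17.2% of cells, Tsc22d3 in 42.4% and 26.3%, and Fkbp5 in 57.3% and 50.6%. For Per1 the shares were 9.23% and 6.33%, for Klf9 34.9% and 32.3% and for Nr3c1 57.8% and 51.4%. Without thinning, the share with a Cebpd UMI was 46.6% in serine/glycine-free and 28.9% in control tumour cells, at median depths of 9588 and 13123.5 UMIs. In T cells, where Cebpd is little expressed, it was 1.83% and 0.233%, at median depths of 1680.5 and 2160.5.

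Counting the 6 targets without the receptor gene, a thinned tumour cell held transcripts of a mean of 2.10 of them in the serine/glycine-free library and of 1.49 in the control library. At least 3 of the 6 were detected in 35.6% of serine/glycine-free and 16.2% of control cells, and none in 8.51% and 17.6%.

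**Figure D2:**
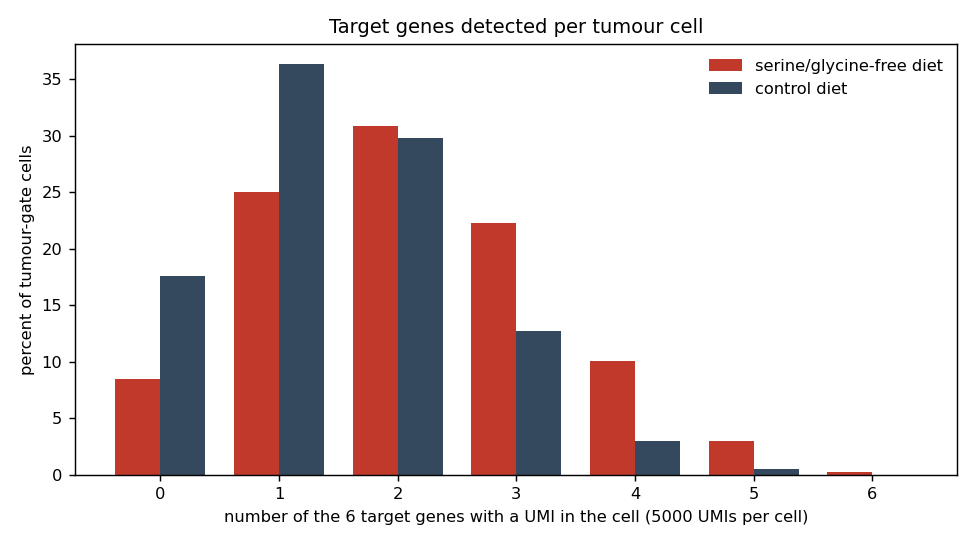
Share of tumour cells (percent) by the number of the 6 targets (all members but Nr3c1) detected, after thinning to 5000 UMIs per cell, the serine/glycine-free library left of the control library. Cells with none made up 8.51% of the serine/glycine-free and 17.6% of the control library.

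Within each library, the co-occurrence of the genes in tumour cells was weak and of 1 sign. For each ordered pair of members, the mean UMI number of one gene was compared between thinned cells with and without a UMI of the other. All 42 ordered pairs had a ratio above 0 on the log2 scale in the serine/glycine-free library and in the control library. Over all features, 50.7% to 67.6% were above 0 in the serine/glycine-free and 46.3% to 67.3% in the control library, by the gene used to split the cells, and 2 and 4 of the 42 pairs lay below the median of the features. The median was 0.30 (0.00 to 0.59) among serine/glycine-free cells and 0.20 (0.00 to 0.49) among control cells. The same median over all features ranged from 0.00 for Tsc22d3 to 0.10 for Fkbp5 in the serine/glycine-free library and from -0.01 for Tsc22d3 to 0.09 for Fkbp5 in the control library. The highest value was that of Cebpd in cells with and without a Klf9 UMI, 0.59 in the serine/glycine-free and 0.49 in the control library. The lowest was that of Nr3c1 in serine/glycine-free cells with and without a Sgk1 UMI, 0.943 and 0.942 UMIs per cell. Cells that share a state, such as the cluster described next, enter every pair, so the pairs are not independent.

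When cells were clustered without the 7 genes, 10 clusters were named as tumour from the tumour panel. They held 14046 serine/glycine-free and 10804 control cells, of which 12084 and 10151 were in the tumour gate. Other clusters that expressed this panel together with a leukocyte panel were set aside as mixed. Cebpd (log2 ratio 0.54 to 1.70), Sgk1 (0.49 to 1.78), Tsc22d3 (0.62 to 2.10), Per1 (0.21 to 1.61) and Nr3c1 (0.19 to 0.80) were higher in the serine/glycine-free library in all 10. Klf9 was higher in 9 and Fkbp5 in 8. Both were lower in a cluster of 19 serine/glycine-free and 260 control cells, where the intervals included 0. Xist was at 526 CPM in those 19 cells, 4 of which were in the tumour gate. Fkbp5 was also about level in the cluster led by Cxcl1, Cryab and Gadd45b, at 102 and 104 CPM (-0.03, -0.15 to 0.09). Among gated cells alone, in the 9 clusters with at least 20 of them in each library, all 7 genes were higher in all 9, Fkbp5 by 0.01 to 0.83 and Klf9 by 0.03 to 0.42. This restriction was chosen after the data were seen. The share of all features higher in every cluster was not counted, so these counts over clusters have no background beside them. In the tumour gate as a whole 55.9% of features were higher, and the genes were selected on that contrast.

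The 7 genes had their highest level over the 10 clusters in the one led by Aspn, Dio2 and Ogn, in the serine/glycine-free and in the control library. There Cebpd was at 749 CPM in serine/glycine-free and 297 CPM in control cells, Fkbp5 at 577 and 325 CPM, and Klf9 at 269.8 and 219.7 CPM. This cluster held 1442 serine/glycine-free and 450 control cells, and its median depth was 4715 UMIs. Its leading genes include several of the extracellular matrix, none is a gene of the tumour panel, and 53.6% of its cells were in the tumour gate. The fibroblast panel was at 0.0591 of the level in the fibroblast gate, the highest of the 10 clusters. Xist was at 2.05 and 0.940 CPM in its serine/glycine-free and control cells, against 289 and 357 CPM in gated fibroblasts. Within the gate, its 699 serine/glycine-free and 315 control cells had Cebpd at 649 and 263 CPM (1.30, 1.18 to 1.43). Among gated cells it had the highest level of the 9 clusters for all 7 genes in the serine/glycine-free library, and for all but Sgk1 in the control library.

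**Figure D3:**
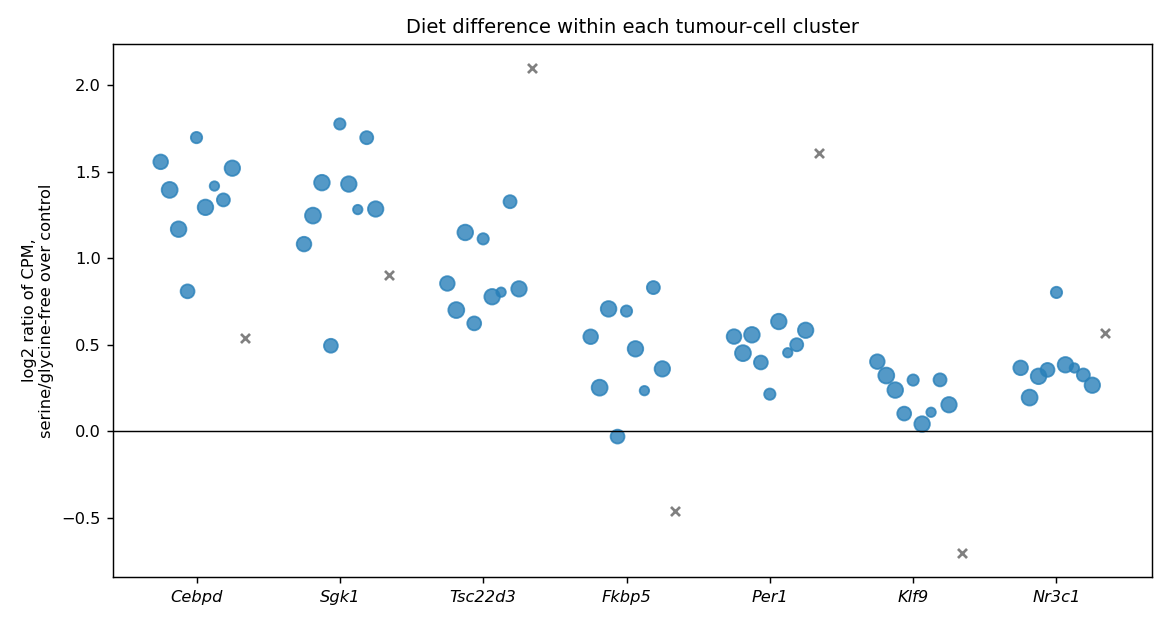
Log2 ratio of serine/glycine-free over control CPM for each gene in the 10 tumour-cell clusters, 1 point per cluster with its size set by the number of cells, gated or not. Crosses mark the cluster with 19 serine/glycine-free cells, where Fkbp5 and Klf9 were below 0.

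Depth per cell differed between the libraries, and the ratios were therefore also taken within bands of UMIs per cell. For Cebpd they were 1.89 among tumour cells below 5000 UMIs, 0.69 between 5000 and 10000, 1.13 between 10000 and 20000 and 1.72 above. Sgk1 ranged from 1.11 to 1.70 and Tsc22d3 from 0.74 to 1.45 over the same bands, and Fkbp5 from 0.38 to 0.78. Klf9 was at -0.07 (-0.14 to 0.01) between 5000 and 10000 UMIs, with 100.8 CPM in serine/glycine-free and 105 CPM in control cells, and above 0 in the other bands. The median over the 7 genes was 0.49 in cycling and 0.66 in non-cycling tumour cells. The cells that entered no gate had 351 CPM of Cebpd in the serine/glycine-free and 115 CPM in the control library. With clusters in place of gates, which takes many of them in, all 7 genes were higher in tumour cells and Cebpd was at 1.64, and with a looser gate at 1.53.

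In stroma all 7 genes were higher in the serine/glycine-free library. Of the 6 with at least 50 UMIs, all 6 had a ratio of at least 0.5 and a counting interval above 0, where 52.5% of the 6138 features measured were higher and 11.4% reached 0.5. The other was Per1, at 26.4 and 14.5 CPM (log2 ratio 0.86, -0.11 to 1.89), which rested on 40 UMIs in all. The kinase gene Sgk1 had the highest ratio, at 165 CPM in serine/glycine-free and 63.8 CPM in control stroma (1.37, 0.94 to 1.81). Cebpd was at 286 and 170.0 CPM (0.75, 0.47 to 1.03) and Tsc22d3 at 40.1 and 21.3 CPM (0.92, 0.12 to 1.74). Fkbp5 was at 119 and 77.3 CPM (0.63, 0.20 to 1.06), Klf9 at 172 and 119.8 CPM (0.52, 0.18 to 0.87) and Nr3c1 at 164 and 113 CPM (0.53, 0.18 to 0.89). With 164 and 120 cells the intervals were wide. After each cell was thinned to 1000 UMIs, 4 of the 7 genes were higher, and Tsc22d3 (-0.71), Nr3c1 (-0.15) and Per1 (-0.13) were lower in the serine/glycine-free library.

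Fibroblasts and endothelial cells, the main constituents of the stromal gate, were alike in Sgk1. In fibroblasts all 7 genes were higher in the serine/glycine-free library, beside 50.7% of the 4455 features measured, 4 by at least 0.5 (11.9% of features) and 0 lower by that much (9.14%). In endothelial cells all 7 were higher, beside 50% of 2357 features, 6 by at least 0.5 (13%) and 0 lower by that much (10.5%). These counts include members under 50 UMIs: Tsc22d3 and Per1 in fibroblasts, and Tsc22d3, Per1 and Klf9 in endothelial cells. In fibroblasts Sgk1 was at 163 CPM in the serine/glycine-free and 59.3 CPM in the control library (1.46, 0.92 to 2.01), and in endothelial cells at 178 and 78.0 CPM (1.19, 0.46 to 1.95). Cebpd was at 331 and 201 CPM in fibroblasts (0.72) and at 205 and 104 CPM in endothelial cells (0.98). Fkbp5 was at 104 and 55.0 CPM in fibroblasts (0.92, 0.33 to 1.54) and at 147 and 124 CPM in endothelial cells (0.25, -0.41 to 0.92). Tsc22d3 had 17 UMIs in serine/glycine-free and 3 UMIs in control endothelial cells (2.57, 0.78 to 4.99), and in fibroblasts its interval included 0 (0.20, -0.81 to 1.22). With 52 and 36 endothelial cells, and with intervals that overlap, no difference between these stromal types can be read from those values.

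In macrophages all 7 genes were again higher in the serine/glycine-free library, beside 47.2% of the 10197 features measured, and all 7 intervals lay above 0. A ratio of 0.5 was reached by 3 genes and by 5.67% of all features. The order of the genes was different from that in tumour cells. Fkbp5 had the highest ratio, at 107 CPM in serine/glycine-free and 61.5 CPM in control macrophages (0.79, 0.61 to 0.97), followed by Sgk1 at 78.3 and 51.0 CPM (0.62, 0.42 to 0.82) and Klf9 at 29.8 and 19.8 CPM (0.59, 0.26 to 0.92). Per1 was at 39.0 and 29.4 CPM (0.41, 0.13 to 0.68), Tsc22d3 at 156 and 118 CPM (0.40, 0.27 to 0.54) and Cebpd at 84.9 and 66.0 CPM (0.36, 0.18 to 0.55). Nr3c1 had the smallest ratio, at 127 and 105 CPM (0.27, 0.13 to 0.42).

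The macrophage gate was set to take in monocytes as well. Its cells rich in the complement genes C1qa, C1qb and C1qc and those poor in them, which can include monocytes, differed in the same direction. Fkbp5 was at 107 and 59.5 CPM in the C1q-high cells (0.84, 0.60 to 1.09) and at 106 and 63.9 CPM in the C1q-low cells (0.74, 0.47 to 1.005). Klf9 was at 19.3 and 17.3 CPM in C1q-high cells (0.15, -0.36 to 0.66), and at 44.2 and 22.8 CPM in C1q-low cells (0.95, 0.52 to 1.40). Tumour transcripts in this gate were at a higher share in the serine/glycine-free library, 5.25% against 3.02%. When the amount of each gene that this share of tumour RNA would bring was subtracted, the median ratio was 0.42, beside 0.41 before.

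In T cells 6 of the 7 genes were higher in the serine/glycine-free library, beside 55% of the 7635 features measured, but the counting interval lay above 0 for Cebpd and Nr3c1 alone. Of the 6 genes with at least 50 UMIs, 1 reached a log2 ratio of 0.5, Klf9, as did 7.23% of all features. Cebpd also exceeded it, on 39 UMIs in all. Cebpd had 38 UMIs in serine/glycine-free and 1 UMI in control T cells, 15.3 and 0.856 CPM (4.16, 1.60 to 9.50), and 22 of 1202 serine/glycine-free cells held them. The tumour RNA in the gate would bring 3.06 CPM of Cebpd in the serine/glycine-free library and 0.857 CPM in the control library, so the control value was at that background. Sgk1 was the gene that was not higher, at 30.3 and 34.2 CPM (-0.18, -0.75 to 0.41), and with clusters in place of gates it was at 0.14. Tsc22d3, whose product GILZ restrains T-cell activation, was at 154 and 129 CPM (0.25, -0.03 to 0.53), and Fkbp5 was at 92.8 and 74.5 CPM (0.32, -0.04 to 0.69). Per1 was at 29.5 and 27.4 CPM (0.10, -0.51 to 0.75) and Klf9 at 19.8 and 11.1 CPM (0.83, -0.08 to 1.84). The median ratio was 0.25, and with cells thinned to 1000 UMIs, which left out 220 serine/glycine-free and 31 control cells, it was -0.13, with 3 of 6 genes higher. Cebpd was left out of these thinned values because it had no ratio. It was found in 1.32% of thinned serine/glycine-free and 0% of thinned control T cells.

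**Figure D4:**
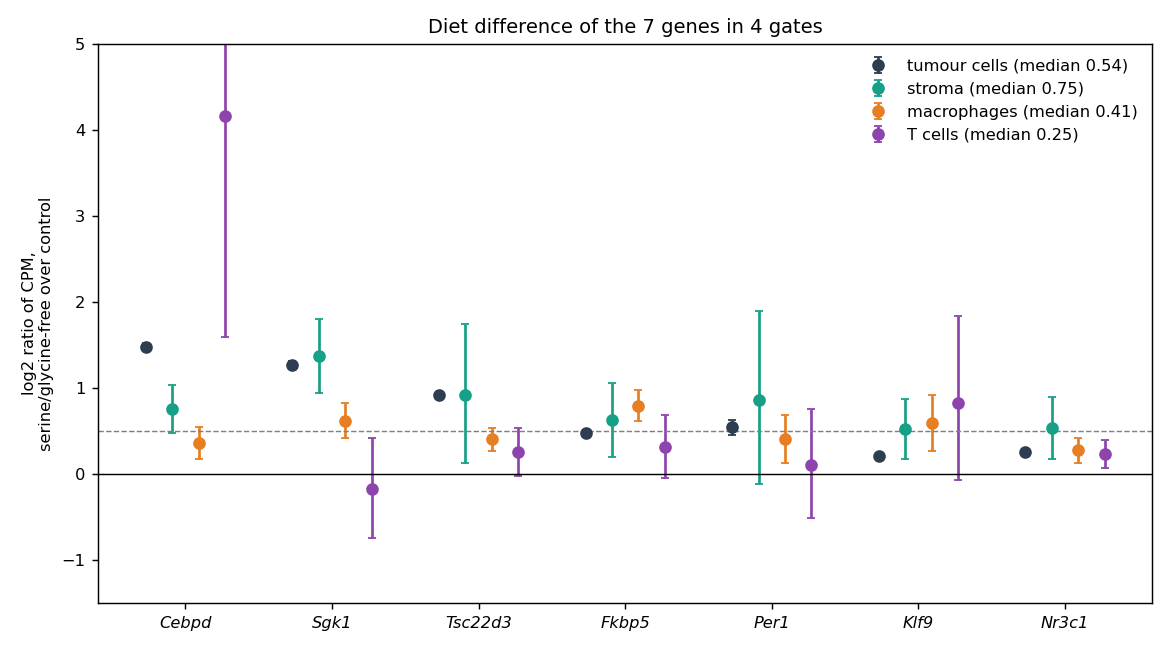
Log2 ratio of serine/glycine-free over control CPM for the 7 genes in the 4 gates, with exact conditional 95% intervals from counting error. The axis ends at 5, and the upper end of the Cebpd interval in T cells, 9.50, lies beyond it.

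Nr3c1 was detected in every class. Its level was highest in T cells among the gates with at least 20 cells, at 429 CPM (404 to 456) in the serine/glycine-free and 366 CPM (332 to 402) in the control library (0.23, 0.07 to 0.40). In tumour cells it was at 184 and 154 CPM, in stroma at 164 and 113 CPM and in macrophages at 127 and 105 CPM. The T-cell level was 3.39 times that of macrophages (3.09 to 3.72) in the serine/glycine-free library and 3.49 times (3.09 to 3.94) in the control library. Levels of the smaller classes lay between those of T cells and macrophages or overlapped them. Neutrophils were at 246 CPM (152 to 376) in the serine/glycine-free and 182 CPM (108 to 288) in the control library, endothelial cells at 195 and 117 CPM, fibroblasts at 152 and 111 CPM and dendritic cells at 147 and 141 CPM. B cells were at 198 CPM (157 to 245) in the serine/glycine-free library and, on 5 UMIs in 17 cells, at 113 CPM (36.7 to 264) in the control library. Gated natural killer cells, with 13 and 8 cells, were at 325 CPM (149 to 617) and 259 CPM (112 to 510), intervals that include the T-cell levels. The gate took few such cells. A cluster named for the natural killer panel held 280 serine/glycine-free and 189 control cells, and 4.48% of them were in the gate. The Nr3c1 level of that cluster is not given here, so T cells and natural killer cells are not ranked against each other. Mural cells, with 6 cells in each library, were at 95.3 and 111 CPM. Below T cells, the intervals of neighbours in this order overlapped within each library, whereas those of tumour cells and macrophages did not overlap each other.

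Depth had to be equal before shares of cells were compared, because T cells were shallower than tumour cells. Without thinning, an Nr3c1 UMI was found in 79.1% of serine/glycine-free and 81.1% of control tumour cells, in 43.4% and 49.1% of T cells and in 31.6% and 34.6% of macrophages. After thinning to 1000 UMIs, T cells led with 29.4% (26.6% to 32.4%) in the serine/glycine-free and 29.1% (24.7% to 33.8%) in the control library. Tumour cells had 17.5% and 14.5%, stroma 15.4% and 15.97% and macrophages 10.6% and 7.95%.

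**Figure D5:**
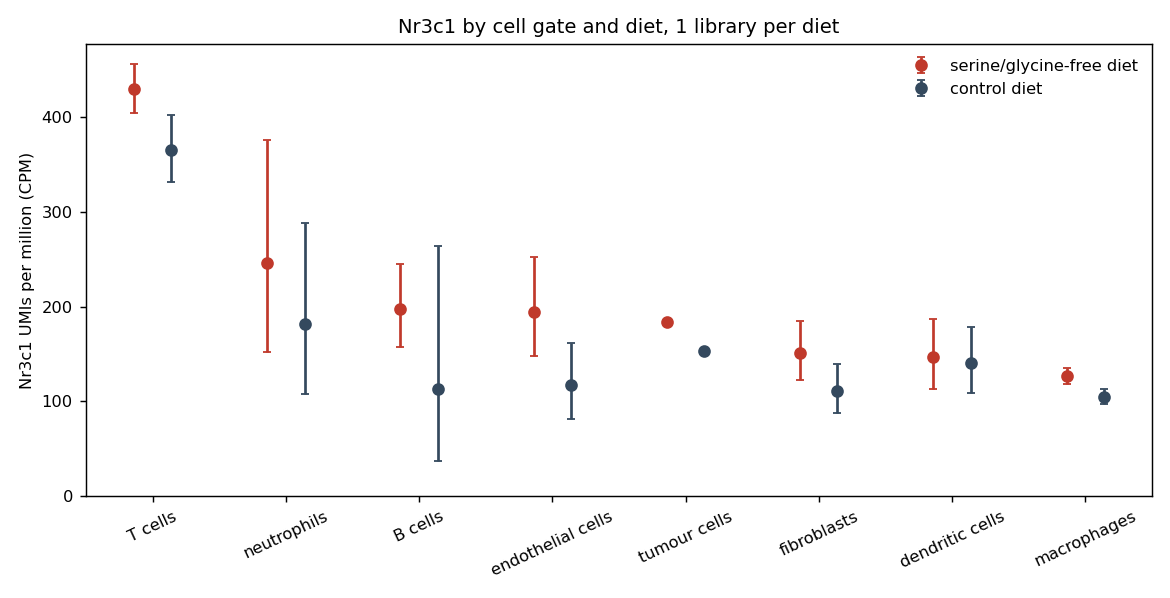
Nr3c1 level (CPM) by cell class with exact Poisson 95% intervals, the serine/glycine-free library left of the control library. T cells stood at 429 and 366 CPM and macrophages at 127 and 105 CPM.

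Within T cells the Nr3c1 difference between the diets varied with the cells taken. In CD8 T cells it was at 434 CPM in the serine/glycine-free and 310 CPM in the control library (0.49, 0.29 to 0.69). In naive-type T cells it was at 389 and 424 CPM (-0.12, -0.60 to 0.37), and among Foxp3-positive T cells, with 29 and 26 cells, the ratio was -0.43. By depth, the ratio was -0.44 (-0.83 to -0.03) below 1500 UMIs per cell, 0.04 between 1500 and 3000, and 0.54 (0.28 to 0.80) above. The mean of per-cell CPM gave 0.02.

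The smaller leukocyte classes did not follow 1 pattern. In dendritic cells Fkbp5 was at 201 CPM in the serine/glycine-free and 92.3 CPM in the control library (1.12, 0.58 to 1.68), whereas Sgk1 was at 40.6 and 73.5 CPM (-0.86). In neutrophils, with a median depth of 616 and 830 UMIs, Fkbp5 had 22 UMIs in the serine/glycine-free and 4 UMIs in the control library (2.67, 1.11 to 4.67), and Per1 had 4 and 9 UMIs. In B cells Tsc22d3 was at 284 and 294 CPM.

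Across the 4 main gates, 5 of the 7 genes had at least 50 UMIs in each: Sgk1, Tsc22d3, Fkbp5, Klf9 and Nr3c1. Cebpd fell short in T cells and Per1 in stroma. Of the 4863 features with that many UMIs in each gate, 713 (14.7%) were higher in the serine/glycine-free library in all 4. Of the 5 genes, 4 were among them, and Sgk1 was not because of its T-cell value. None of the 5 reached a log2 ratio of 0.5 in all 4 gates, which 4 features (0.0823%) did. All gates come from the same 2 libraries, so the 4 gates are not independent looks at the diet.

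By the distance between vectors of the 4 log2 ratios, the features most like each gene were found among the 4863. Sgk1 was closest to Tspan13, Gbp3 and Serpina3g, and Tsc22d3 to Cdkn2c, Gbp7 and Ccna2. Fkbp5 was closest to Tmem140, Hpse and Ndrg1, Klf9 to Slc30a4, Gng12 and Zfpm2, and Nr3c1 to Scp2, Fnip1 and Peli1. By its level over 7 gates, Nr3c1 was most like Itpr2, Csnk1g1, Kat2b, Mdm4 and Ppm1b among 2062 features. No other member was among the 3 nearest features of a member.

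The wider set of 35 genes known to be induced by glucocorticoids, without the 7, differed by class. In tumour cells 24 of the 28 measured were higher in the serine/glycine-free library, beside 55.9% of all features. Of the 28, 10 were higher by at least 0.5 and 1 was lower by that much (background 7.57% and 5.87%), with a median of 0.34. In stroma 14 of 18 were higher, 8 past 0.5 and 3 past -0.5 (background 52.5% higher, 11.4% and 7.35%), median 0.43. In macrophages 20 of 26 were higher, 5 past 0.5 and 2 past -0.5 (background 47.2% higher, 5.67% and 4.87%), median 0.20. In T cells 8 of 18 were higher, 3 past 0.5 and 4 past -0.5 (background 55% higher, 7.23% and 5.54%), with a median of -0.30.

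Of its genes, Zbtb16, a transcription factor, was at 1.003 CPM in serine/glycine-free and 0.110 CPM in control tumour cells (3.19, 2.44 to 4.04). Il7r, the interleukin-7 receptor of lymphocytes, was at 0.920 and 0.193 CPM there (2.26), beside the leukocyte gene Ptprc at 3.28 and 1.07 CPM, and the part of leukocyte RNA in this value was not tested. Ampd3, an AMP deaminase, was at 9.77 and 3.47 CPM (1.49), and Lcn2, which encodes the iron-binding acute-phase protein lipocalin-2, at 33.5 and 13.1 CPM (1.36). Both are among the leading genes of the Aspn cluster described above. In stroma Lcn2 was at 61.2 CPM in the serine/glycine-free and 14.5 CPM in the control library (2.08, 1.24 to 3.01), Cdkn1c, a cell-cycle inhibitor, at 40.1 and 22.2 CPM (0.85) and Dusp1, a MAP kinase phosphatase, at 239 and 140.1 CPM (0.77). In macrophages Acsl1, an acyl-CoA synthetase, was at 79.4 CPM in the serine/glycine-free and 41.0 CPM in the control library (0.96) and the metallothionein gene Mt2 at 79.9 and 43.0 CPM (0.89). In T cells Rhob was at 10.9 and 24.8 CPM (-1.19) and Bcl6 at 11.7 and 24.0 CPM (-1.03), and the metallothionein gene Mt1 was at 155 and 89.9 CPM (0.79).

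The list of the receptor's own machinery holds its chaperones, coregulators such as Ncoa1 and Ncor1, and enzymes that activate or inactivate the hormone. Of these enzymes, none was measured in tumour cells or macrophages, and Hsd11b1 alone in stroma and T cells. In tumour cells, stroma, macrophages and T cells, the medians over all features were 0.03, 0.02, -0.02 and 0.04. Those of the measured list genes were 0.03, 0.18, 0.04 and 0.03. Among 15 measured in tumour cells, 0 reached 0.5 in either direction (background 7.57% up and 5.87% down). In stroma 11 of 16 were higher, 3 past 0.5 and 1 past -0.5 (background 52.5% higher, 11.4% and 7.35%). There Hsd11b1, the enzyme that regenerates active glucocorticoid from its inactive form, was at 66.5 CPM in the serine/glycine-free and 23.2 CPM in the control library (1.52, 0.82 to 2.26), and in T cells at 73.8 and 47.1 CPM (0.65, 0.21 to 1.11). Relatives of the 7 genes had medians of 0.13, 0.05, -0.06 and 0.00 in tumour cells, stroma, macrophages and T cells. Clock genes, the partners of Per1, had medians of 0.19, -0.34, 0.35 and -0.31 in the same order, over 16, 6, 12 and 7 measured genes.

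Immediate-early genes and genes induced by dissociation of tissue, some of which also respond to glucocorticoids, were counted beside these results. In tumour cells 15 of 24 were higher in the serine/glycine-free library, with a median of 0.22, and 4 were past 0.5 and 3 past -0.5 (background 55.9% higher, 7.57% and 5.87%). Among them Dusp1 was at 93.7 CPM in serine/glycine-free and 45.3 CPM in control tumour cells (1.05), Zfp36, whose product destabilises cytokine mRNAs, at 54.7 and 28.2 CPM (0.96), and Fosb at 45.3 and 86.8 CPM (-0.94). In macrophages the median was -0.18. In T cells 1 of 20 was higher, beside 55% of all features, and 11 were past -0.5, beside 5.54%, with a median of -0.52. There Fos was at 31.9 CPM in the serine/glycine-free and 123 CPM in the control library (-1.95), and the heat-shock gene Hspa1b at 6.45 and 29.1 CPM (-2.17). The part of handling of the tissue in the member values was not tested.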

How the data were processed

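Gene-by-cell UMI counts were deposited by the authors as a filtered 10x matrix per library, with no normalization. The matrices came from Cell Ranger 7.0.1 per the file headers, whereas the submitters' processing notes name Cell Ranger 2.2.2 and the mm10 build. Which annotation was used, and whether reads in introns were counted, is not stated by these sources. The protocol text in the labels describes human cardiac tissue, which goes against the mouse and tumour fields of the same labels. That CT stands for the control diet and SG for the diet without serine and glycine was read from the titles beside the series' design text.

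Cells with at least 500 UMIs, 300 genes and at most 20% mitochondrial UMIs were kept, and Scrublet (in scanpy 1.11.5) removed 1206 (5.94%) serine/glycine-free and 571 (4.03%) control cells as doublets. A cell entered a gate with at least 3 UMIs (tumour and fibroblast gates 5) from at least 2 genes of its panel (fibroblasts 3). Each other panel had to be at no more than 20% of that, with some exceptions. The fibroblast and mural panels did not exclude tumour cells, and the macrophage panel did not exclude dendritic cells. T cells also needed a UMI of Cd3d, Cd3e or Cd3g. UMIs were summed per gate and library and divided by the gate's total. Intervals are exact Poisson for CPM, Clopper-Pearson for shares and exact conditional for ratios, at 95%. Ratio calls used at least 50 UMIs over both libraries and a log2 ratio of 0.5. Clusters came from 2000 variable genes without the 7, with 30 components, 15 neighbours and Leiden resolution 1. Alternatives changed gates, doublets, scaling, averaging, depth, pseudocount and cell subsets. Gene coordinates are from GENCODE M21 (mm10), matched by identifier for all 7. The scripts (Python 3.11.15, scipy 1.17.1) were tested on simulated data.

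All 7 genes are reported in the 4 main gates. From each gene list the text takes up to 4 genes of largest ratio in a gate, and any other list gene named was chosen after its values were seen. A list gene that this rule names is not reported here. The members, marker panels and lists were chosen with earlier results of these data known.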

Additional observations from a re-analysis of the deposited data

Results flagged for a closer look

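Sgk1 was at 30.3 CPM in serine/glycine-free and 34.2 CPM in control T cells, a log2 ratio of -0.18, and was higher in the serine/glycine-free library in tumour cells, stroma and macrophages. The opposite direction was what drew attention, and the difference between the classes was not tested, since each diet is 1 library. The interval of the T-cell value, -0.75 to 0.41, included 0. The direction turned with clusters in place of gates (0.14), in naive-type T cells (0.13) and among T cells of 1500 to 3000 UMIs (0.28, -0.63 to 1.27).

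The list of other glucocorticoid-induced genes had a median log2 ratio of -0.30 in T cells and medians above 0 in the other 3 gates. The clock genes had a median of -0.34 in stroma, over 6 genes, against medians above 0 in tumour cells and macrophages. The immediate-early and dissociation genes had a median of -0.52 in T cells and of 0.22 in tumour cells. These differences in direction between classes were not tested.

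Among the cells that entered no gate, Cebpd was at 351 CPM in the serine/glycine-free and 115 CPM in the control library. These cells, 3234 and 1217 of them, take no part in the comparisons by gate.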

How the results depend on the processing

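Tumour cells, stroma and macrophages kept a median log2 ratio above 0 for the 7 genes under every alternative run. In tumour cells the median of 0.54 became 0.79 with cells thinned to 1000 UMIs, 0.45 with a pseudocount of 10 CPM and 0.66 in non-cycling cells. Thinning to 1000 UMIs left 4 of 7 genes higher in stroma, with Tsc22d3 at -0.71, Nr3c1 at -0.15 and Per1 at -0.13. In T cells the median of 0.25 turned to -0.13 with thinning (3 of 6 genes higher) and to -0.43 in Foxp3-positive T cells (2 of 5 higher, Nr3c1 at -0.43). Genes without a control UMI have no ratio and were left out of these medians and counts. They were Cebpd with thinning, and Cebpd and Klf9 in Foxp3-positive cells, each seen in the serine/glycine-free library only. With them counted as higher, neither median would be below 0. Nr3c1 was at -0.12 in naive-type T cells, an alternative chosen after seeing the data, as were the subtraction of tumour RNA and the gated clusters. With thinning, the Nr3c1 level in T cells was 3.89 times that in macrophages in the serine/glycine-free and 5.06 times in the control library. The cause of these changes was not tested, beyond the smaller number of UMIs and cells. Of 460 single-gene values under alternatives, 11 had the opposite sign, 3 in stroma and 8 in T cells, and none of those in tumour cells or macrophages did. In T cells these include Sgk1 (0.14 with clusters in place of gates, 0.13 in naive-type cells), Tsc22d3 (-0.28 with thinning, -0.44 in Foxp3-positive cells) and Per1 (-0.30 with thinning, -0.02 with the mean of per-cell CPM). Bands of UMIs per cell are not among the 460. In them only Klf9 in tumour cells (-0.07, 5000 to 10000 UMIs) and Cebpd in macrophages (-0.36, -1.38 to 0.77, 500 to 2000 UMIs) were below 0 in those gates. T cells had both signs, with Tsc22d3 at -0.46 (-0.86 to -0.05) between 1500 and 3000 UMIs and 0.67 (0.09 to 1.27) above.

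No paired analysis was possible because each diet is 1 library, and for the same reason none was left out in turn. Counting intervals do not cover differences between animals, tumours or library preparations. Depth limits Per1 and Cebpd most, with 40 UMIs of Per1 in stroma and 39 of Cebpd in T cells, and depth per cell differed between the diets in every gate.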
